A study of Homo sapiens with 4 samples.

Results

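The results below describe 6 mismatch repair genes, MSH6, MSH3, PMS2, MLH3, PMS1 and EXO1, in cisplatin-sensitive and cisplatin-resistant head and neck squamous cell carcinoma (HNSCC) cells. The members were chosen by name: every probe whose gene name in the scanner output was one of these 6 symbols was taken, which gave 15 probes among 58183 and 6 genes among 43305. Expression was measured on 4 one-colour Agilent arrays, with Cy3-labelled RNA of 1 sample on each: the parental lines HN4 and HN30 and their resistant derivatives HN4/DDP and HN30/DDP. Both parental lines are established human HNSCC lines and were grown without the drug. HN4/DDP and HN30/DDP, which the labels call HN4_CR and HN30_CR, were derived from them by stepwise exposure to cisplatin and were kept in 20 μM cisplatin for 48 h. The cisplatin of the culture medium and the derivation of the resistant line therefore cannot be told apart in these arrays, and whether each resistant line is a clone or a mixed population was not found in its description. Each condition has 1 array, so the difference within a line has no test.

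Mismatch repair removes the base mispairs and small loops that DNA polymerases leave behind during replication. MutS complexes, which contain MSH6 or MSH3, recognise the mispair, and MutL complexes, which contain PMS2, PMS1 or MLH3, are recruited to it. EXO1 then digests the strand that carries the error from a nick, and the gap is filled again with the clamp PCNA, its loader RFC, the single-strand binding protein RPA, a polymerase and a ligase. The pathway is known in cisplatin research because MutS complexes also bind platinum crosslinks between neighbouring guanines, and because loss of mismatch repair has been linked to tolerance of the drug in several cell types.

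A level is given here as the log2 of the processed spot intensity minus the 75th percentile of the array, so that 0 marks a spot as bright as that percentile. A difference is the level on the resistant array minus that on the parental array, and a difference of 1 is a factor of 2. The error beside a difference is the scanner SD, computed from the error that the Feature Extraction software gives for each spot, and was about 0.20 for every member probe above background. It covers the reading of the array and not the spread between cultures, which these data do not measure. Levels of different probes are not compared, since probes differ in how strongly they bind.

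The arrays were of similar quality. The 75th percentile lay between 444 and 496 intensity units, between 55.3% and 63.6% of the spots were well above background by the software's own mark, and no spot was saturated. All 6 squamous epithelial markers examined (KRT5, KRT14, KRT17, TP63, DSG3 and CDH1) were well above background on all 4 arrays. Their levels differed within the lines: in HN4/DDP the difference was −4.05 for KRT5, 3.29 for KRT17, 2.33 for KRT14, 1.84 for DSG3, 0.58 for CDH1 and −0.82 for TP63. In HN30/DDP it was −1.93 for KRT5 and 1.34 for CDH1, and between −0.06 and 0.55 for the other 4. The leukocyte marker PTPRC, also well above background, had low levels between −3.10 and −2.84, and the fibroblast and pericyte marker PDGFRB between −3.73 and −3.10. The endothelial marker PECAM1 was above background on the HN4 array at −3.96 and the HN30/DDP array at −3.91 and not on the others. The part of these markers and of other cells in the differences below was not tested. The median difference of all genes above background was −0.08 in HN4/DDP and 0.06 in HN30/DDP.

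The 60-base probes that stand for the members are shown here because each value below is the brightness of 1 of these sequences, and because the probes of a gene did not always move alike. They are written 5′ to 3′ in lower case, on the strand of the transcript, with hg19 positions from the scanner output. EXO1 was read at chr1:242048717-242048776, MSH6 at chr2:48033919-48033978 and MSH3 at chr5:80169024-80169083, each on the plus strand. PMS2 was read on the minus strand by 5 probes, of which the brightest lies at chr7:6042097-6042156 and the one with the lowest difference at chr7:6026718-6026777. MLH3 was read on the minus strand at chr14:75485615-75485674. The brightest PMS1 probe spans chr2:190732610-190738235 on the plus strand, 5626 bases of genome for 60 bases of probe, so it crosses a splice junction.
EXO1: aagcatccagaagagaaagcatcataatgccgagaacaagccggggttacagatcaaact
MSH6: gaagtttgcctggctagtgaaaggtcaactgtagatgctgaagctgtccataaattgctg
MSH3: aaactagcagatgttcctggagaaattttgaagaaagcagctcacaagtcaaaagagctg
PMS2, brightest probe: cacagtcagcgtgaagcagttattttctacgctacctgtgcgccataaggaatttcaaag
PMS2, probe with the lowest difference: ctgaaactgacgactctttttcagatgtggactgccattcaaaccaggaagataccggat
MLH3: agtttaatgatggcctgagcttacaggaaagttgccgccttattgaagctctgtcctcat
PMS1: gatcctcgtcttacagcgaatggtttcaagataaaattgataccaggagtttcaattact

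Among the 6 genes, EXO1 was the one with a large difference, and it was seen in HN30/DDP. In HN4/DDP, 0 of the 6 members were higher by over 1 and 0 were lower by over 1, beside 9.31% and 8.65% of the 26853 genes above background on either array of that pair. All 6 differences lay below 0 there, as did 15013 of the 26853 genes, whose median was −0.08. The 6 lay between −0.39 and −0.02, with a median of −0.14, though MLH3 and MSH6 rose above 0 under some other settings. MLH3 reached 0.023. MSH6 reached 0.054 after quantile normalization, and 0.51 as the mean of all its probes, which includes a probe not well above background. In HN30/DDP, 0 members were higher by over 1 and 1, EXO1, was lower by over 1, beside 19.8% and 13.3% of 28330 genes. The count of 1 in 6 is near that background, so as a group the members did not stand apart in it, although scaling on the array median, which lowers the median of all genes to −0.36, made the count 3. Their median difference in HN30/DDP was −0.57, and between −0.99 and −0.19 over 9 settings. There 4 members lay below 0 and 2 above, beside 13352 and 14978 of the 28330 genes. The sign of MSH6, PMS2 and MLH3 changed with the setting.

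**Figure D1:**
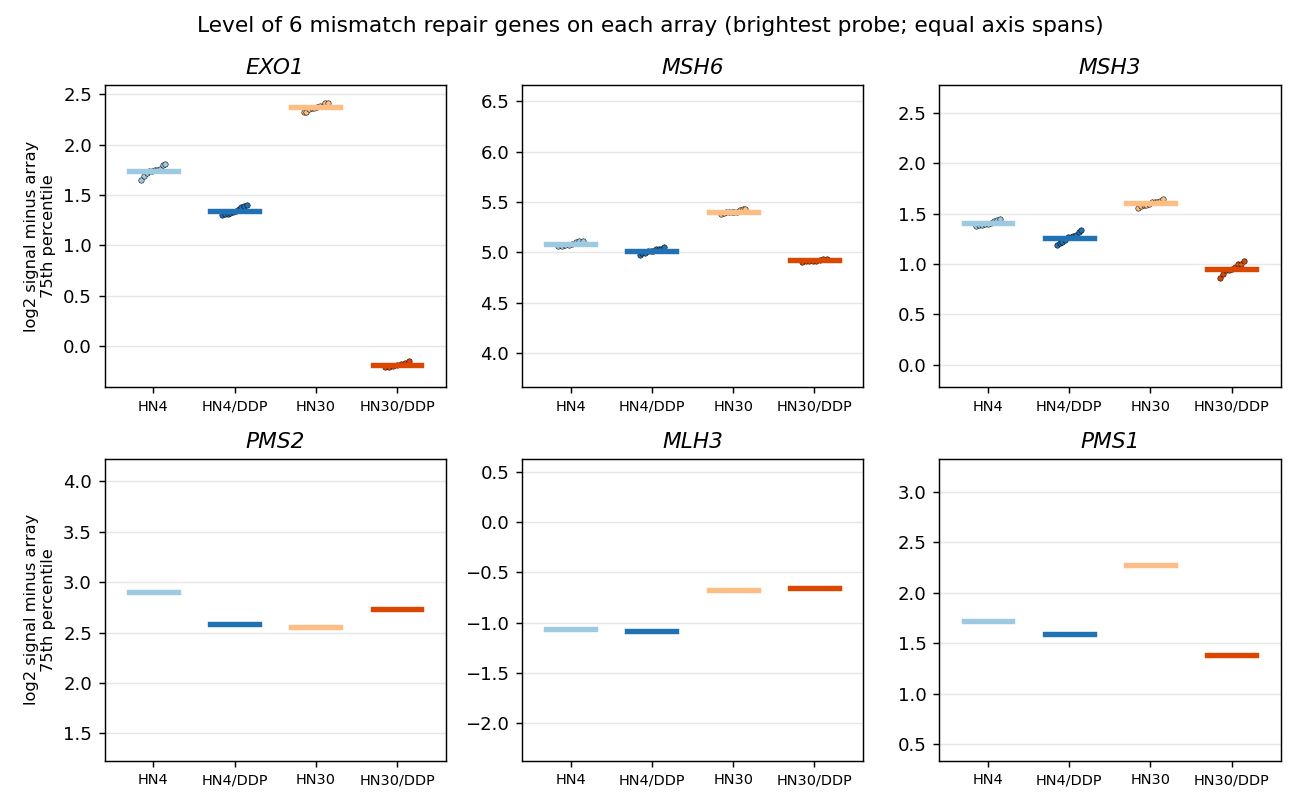
Level of each member on the 4 arrays (y axis, log2 signal minus the array's 75th percentile; each panel spans the same range). Bars are the level of the brightest probe and small points are its single spots where the array carries copies; EXO1 had 2.37 on the HN30 array and −0.18 on the HN30/DDP array, and the other 5 genes moved by less than 1.

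MSH6 pairs with the common MutS subunit to recognise base mispairs and very short loops. Its main probe, printed in 10 copies on each array, had a level of 5.09 in HN4 and 5.01 in HN4/DDP, and 5.40 in HN30 against 4.92 in HN30/DDP. The levels of HN4, HN4/DDP and HN30/DDP followed each other in steps of 0.07 and 0.10, which is less than the scanner SD, and the HN30 array stood above them. The difference was −0.07 ± 0.20 (scanner SD) in HN4/DDP and −0.49 ± 0.20 in HN30/DDP. The second value depended on the scaling: it was −0.91 with scaling on the array median, 0.10 after quantile normalization, 0.056 in the authors' own table and 0.016 once the trend of the differences with brightness was taken out. That trend, fitted over all genes, was −0.50 at the brightness of MSH6 on the HN30 pair, as large as the MSH6 difference itself.

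The other 2 probes named MSH6 lie far from the main one, and both are assigned to another transcript (ENST00000454137). The nearer lies 49 kb upstream and was not well above background on any array, so no difference is read from it. The farther lies 98.5 kb upstream. It had levels of −0.84 and −0.87 in the HN4 pair, parental first, and of −0.81 and −0.94 in the HN30 pair. Its differences were −0.03 and −0.13, both within the scanner SD.

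MSH3 pairs with the same subunit and recognises larger loops. Its 10-copy probe had a level of 1.41 in HN4 and 1.26 in HN4/DDP, and 1.60 in HN30 against 0.95 in HN30/DDP. HN30/DDP was the lowest array, with spots between 0.86 and 1.03. The spots of each array lay apart from those of every other array. This includes HN4, with spots between 1.37 and 1.45, and HN4/DDP, with spots between 1.19 and 1.34. Copies on 1 array share the same RNA, so such gaps show how precisely the arrays were read and not how cultures vary. The difference was −0.15 ± 0.20 in HN4/DDP and −0.65 ± 0.20 in HN30/DDP, a level 1.57-fold lower. A second MSH3 probe gave 0.03 ± 0.21 in HN4/DDP and −0.29 ± 0.21 in HN30/DDP. The trend with brightness at the level of the main MSH3 probe was −0.26 in the HN30 pair, and the difference without it was −0.39, while scaling on the array median gave −1.07, past the threshold of 1.

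**Figure D2:**
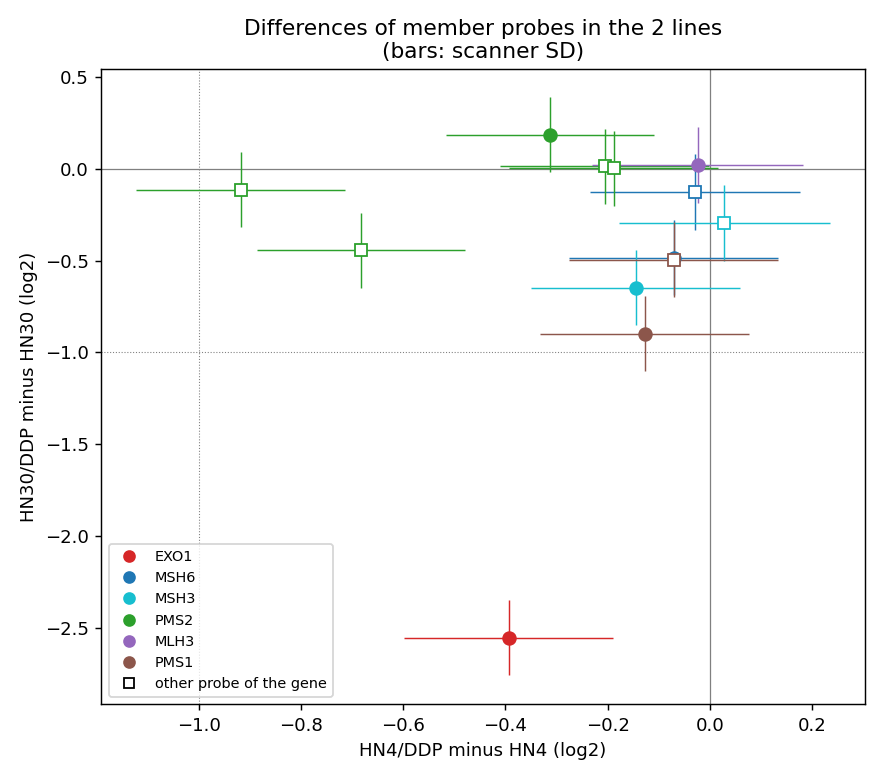
Differences of the 13 member probes that were well above background, with HN4/DDP minus HN4 on the x axis and HN30/DDP minus HN30 on the y axis (log2). Filled circles are the brightest probe of each gene, open squares its other probes, bars the scanner SD and dotted lines a difference of −1; the EXO1 probe lies alone at −0.39 and −2.55.

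Of the MutL subunits, PMS2 forms the complex that cuts the strand carrying the error. Its brightest probe had a level of 2.90 in HN4 and 2.59 in HN4/DDP, and 2.55 in HN30 against 2.74 in HN30/DDP. From the highest array, HN4, through HN30/DDP and HN4/DDP to HN30, each step to the next was within the scanner SD. The difference was −0.31 ± 0.20 in HN4/DDP and 0.18 ± 0.20 in HN30/DDP. In HN30/DDP the sign changed with the setting, from −0.24 with scaling on the array median to 0.58 after quantile normalization.

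PMS2 was the member with the most probes, and they differed among themselves. All 5 were well above background on all 4 arrays. In HN4/DDP the 5 differences, in order from the 5′ to the 3′ end of the gene, were −0.21, −0.19, −0.31, −0.92 and −0.68. The 3 probes nearer the 5′ end thus lay between −0.31 and −0.19, and the 2 nearer the 3′ end lay lower than these by more than the scanner SD of 0.20. In HN30/DDP the same probes gave 0.01, 0.00, 0.18, −0.11 and −0.44, and the probe at the 3′ end was again below the first 3. The probe with the lowest value, whose sequence is given above, had a level of 0.72 in HN4 and −0.19 in HN4/DDP, and 0.81 in HN30 against 0.69 in HN30/DDP. It stood low on the HN4/DDP array alone, and no PMS2 probe passed a difference of 1. PMS2 has pseudogene copies that resemble parts of it, and which probes they share was not examined.

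**Figure D3:**
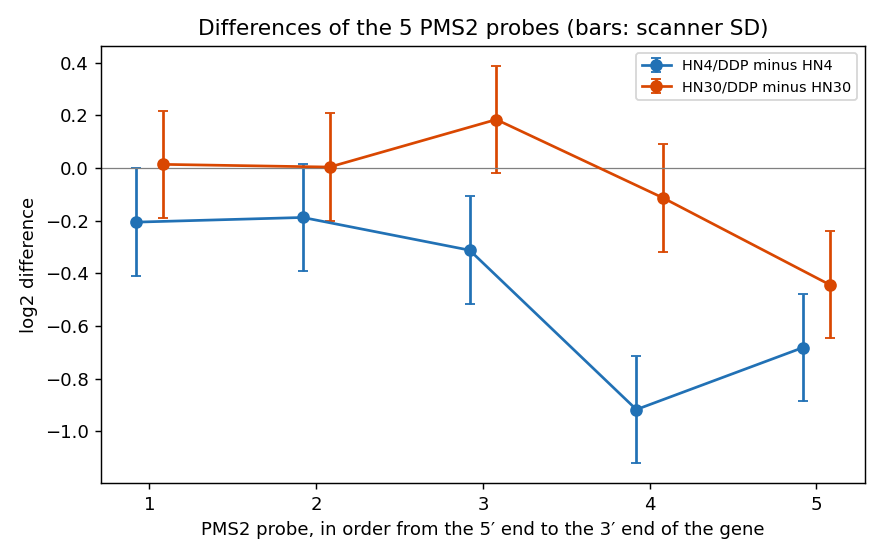
Differences of the 5 PMS2 probes (y axis, log2) in order from the 5′ end to the 3′ end of the gene (x axis, equal steps), with the scanner SD as bars. In HN4/DDP the last 2 probes lie at −0.92 and −0.68, below the first 3, and in HN30/DDP the last lies at −0.44.

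MLH3, which acts with its MutL partner mainly at crossovers in meiosis and in a part of mismatch repair, was nearly the same on each pair of arrays. Its level was −1.06 in HN4 and −1.09 in HN4/DDP, and −0.68 in HN30 against −0.66 in HN30/DDP. The HN30 arrays stood above the HN4 arrays, by 0.39 between the parental lines, while the differences of resistant from parental were −0.02 ± 0.21 and 0.02 ± 0.21. Scaling on the array median gave −0.40 in HN30/DDP, a setting under which the median of all genes moved from 0.06 to −0.36 as well.

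PMS1, a MutL subunit whose part in human mismatch repair is small, had the next largest difference after EXO1 in HN30/DDP, by the brightest probe of each gene. The level of its brightest probe was 1.72 in HN4 and 1.59 in HN4/DDP, and 2.28 in HN30 against 1.38 in HN30/DDP. HN30 was the highest array and HN30/DDP the lowest. The difference was −0.13 ± 0.20 in HN4/DDP and −0.90 ± 0.20 in HN30/DDP, a level 1.86-fold lower. A second probe, on another transcript, gave −0.07 ± 0.20 and −0.49 ± 0.20, so that both PMS1 probes above background were lower in HN30/DDP but to a different extent. The remaining PMS1 probe was not well above background on any array. The trend with brightness was −0.31 at the level of PMS1 in the HN30 pair, and the difference without it was −0.59, while scaling on the array median gave −1.32, past the threshold of 1.

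EXO1, the exonuclease that removes the strand with the error, showed the widest range of the 6 genes. Its single probe, printed in 10 copies, had a level of 1.74 in HN4 and 1.35 in HN4/DDP, and 2.37 in HN30 against −0.18 in HN30/DDP. HN30 was the highest of the 4 arrays and HN30/DDP the lowest. The copies ranged from 1.65 to 1.81 in HN4 and from 1.30 to 1.40 in HN4/DDP. They ranged from 2.32 to 2.42 in HN30 and, over the 7 copies that were kept, from −0.20 to −0.15 in HN30/DDP. No 2 arrays overlapped, which also held for MSH3 and for MSH6, whose difference in HN4/DDP was only −0.07. Copies on 1 array share the same RNA, so such gaps show how precisely the arrays were read. The EXO1 difference in HN4/DDP was −0.39 ± 0.20, a level 1.31-fold lower. The difference in HN30/DDP was −2.55 ± 0.20, a level 5.87-fold lower.

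The EXO1 difference in HN30/DDP also passed 2, and 2.75% of all genes were lower by over 2 in that line. In either direction 11.1% of all genes passed 2 there and 5.81% in HN4/DDP. The study applied a log fold change over 2 to genes that rose in both resistant lines, whereas EXO1 was lower and passed 2 in HN30/DDP only. Only 1.25% of the 28330 genes had a lower difference in HN30/DDP, against 28.0% of 26853 in HN4/DDP. The EXO1 difference in HN30/DDP lay between −2.97 and −2.31 under all 9 settings compared, and in HN4/DDP between −0.39 and −0.33. The HN30/DDP value was lower than that of HN4/DDP by 2.16 on the log2 scale, with a scanner SD of 0.29 for this gap between the 2 differences. The gap was not tested, since each line has 1 pair of arrays. Part of it lay in the parental lines, since EXO1 was higher by 0.63 in HN30 than in HN4, and part in the resistant lines, since it was lower by 1.53 on the log2 scale in HN30/DDP than in HN4/DDP.

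**Figure D4:**
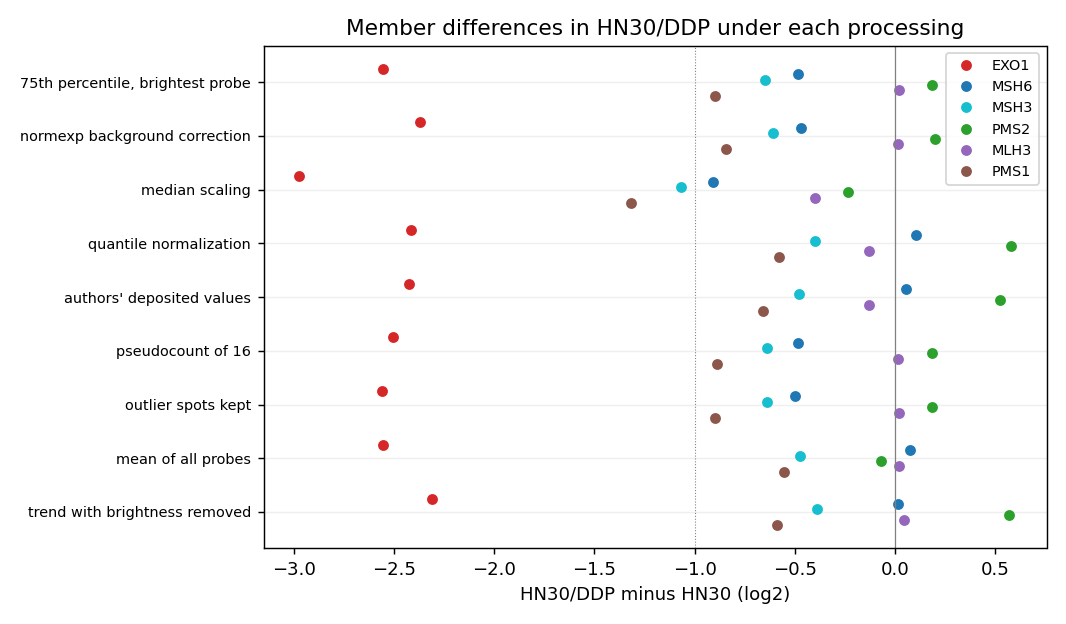
Difference of each member in HN30/DDP (x axis, log2) under 9 ways of processing the arrays (rows); the top row holds the values of the text and the dotted line marks −1. EXO1 stays between −2.97 and −2.31, MSH3 and PMS1 stay below 0, and MSH6, PMS2 and MLH3 lie on either side of 0.

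The only contrast with replication sets the 2 resistant arrays against the 2 parental ones, blocked on the cell line, which leaves 1 residual degree of freedom. It was fitted with limma over 29521 genes. After Benjamini-Hochberg adjustment 0 of them (0%) had a p under 0.05, and 2537 had an unadjusted p under 0.05, which is 8.59%. EXO1 had an estimate of −1.47 with an SE of 0.65 and an adjusted p of 0.630 in limma. The other 5 members had estimates between −0.51 for PMS1 and −0.001 for MLH3, with adjusted p between 0.801 and 0.999 in limma. No member therefore passed a test in these data, and with 1 residual degree of freedom this does not show that their levels are equal.

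Of 15 factors that work with the 6 genes after recognition, 11 were lower by over 1 in HN30/DDP. The 15 genes are the clamp PCNA, the loader subunits RFC1 to RFC5, the binding protein subunits RPA1 to RPA3, the polymerase subunits POLD1 to POLD4, the ligase LIG1 and HMGB1, a chromatin protein that takes part in the reaction in reconstituted systems. Beside these 11, 1 gene was higher by over 1, against 13.3% lower and 19.8% higher among all genes, and the median was −1.31. The median was −0.96 after quantile normalization and −0.97 without the trend with brightness, settings under which fewer of the 15 pass 1. RFC1 at −0.54, RPA1 at −0.76 and POLD1 at −0.92 did not pass 1. PCNA had a level of 6.29 in HN4 and 5.65 in HN4/DDP, and 6.81 in HN30 against 4.27 in HN30/DDP, and its difference of −2.54 in HN30/DDP was close to that of EXO1. HMGB1 followed at −2.19 and RFC2 at −2.04. The gene that was higher was POLD4, a small accessory subunit of polymerase delta, at 2.21.

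In HN4/DDP the same list had 2 genes lower by over 1 and 0 higher, with a median of −0.40, beside 8.65% and 9.31% of all genes, so that these counts were near the background. The 2 were HMGB1 at −1.51 and RPA3 at −1.18. POLD4 was the highest at 0.99, as it was in HN30/DDP. EXO1 lay within the range of the list in HN4/DDP, where 8 of the 15 genes were lower than EXO1, and at the lower end of the list in HN30/DDP, where 0 of the 15 were and PCNA was level with it. PMS2, MSH6 and MLH3 each lay above 14 of the 15 in HN30/DDP.

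The 3 relatives of EXO1 in its nuclease family did not all behave alike. FEN1, which trims flaps during replication and base excision repair, had a difference of −0.43 in HN4/DDP and −2.35 in HN30/DDP, close to EXO1 in both lines. GEN1, which cuts Holliday junctions, had −0.29 and −1.82. ERCC5, the nuclease of nucleotide excision repair that cuts beside bulky adducts such as those of cisplatin, had 0.55 and 0.35 and was thus above 0 in both. Of the MutS proteins of meiosis, MSH4 was not well above background on any array. MSH5 had a level of 0.46 in HN4 and 0.38 in HN4/DDP, and 0.17 in HN30 against 1.45 in HN30/DDP. It was higher by 1.28 on the HN30/DDP array and differed by −0.08 in HN4/DDP, so it went the other way from MSH3 in HN30/DDP.

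Genes that mark dividing cells were lower by over 1 in HN30/DDP with 1 exception, and few of them were in HN4/DDP. Of 20 genes of DNA replication in S phase, 19 were lower by over 1 in HN30/DDP and 11 by over 2, beside 13.3% and 2.75% of all genes. Their median was −2.16, from RRM2, a ribonucleotide reductase subunit, at −3.74 to the licensing factor CDT1 at −0.77. In HN4/DDP 3 of the 20 were lower by over 1, beside 8.65% of all genes, all 20 lay below 0 and the median was −0.50, from the helicase subunit MCM4 at −1.49 to RRM1 at −0.01. Of 15 genes of mitosis, 15 were lower by over 1 in HN30/DDP, beside the same 13.3%, with a median of −1.64, from the kinase AURKA at −2.25 to NUSAP1 at −1.12. In HN4/DDP 2 of them were, beside the 8.65%, with a median of −0.40, from the proliferation antigen MKI67 at −1.09 to TPX2 at −0.09.

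EXO1 sat inside the range of the S phase genes in both lines. In HN4/DDP 12 of the 20 were lower than EXO1, and in HN30/DDP 6 of the 20 were. The other 5 members sat above most of them: all 20 S phase genes were lower than MSH6, MSH3, PMS2 and MLH3 in HN30/DDP, and 19 of the 20 were lower than PMS1. EXO1 lay below the mitosis genes there, with 0 of the 15 lower than it, and all 15 were lower than each of the other 5 members. The part of cell division in the EXO1 difference was not tested. In bulk RNA, fewer dividing cells and less EXO1 RNA in each cell cannot be told apart.

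**Figure D5:**
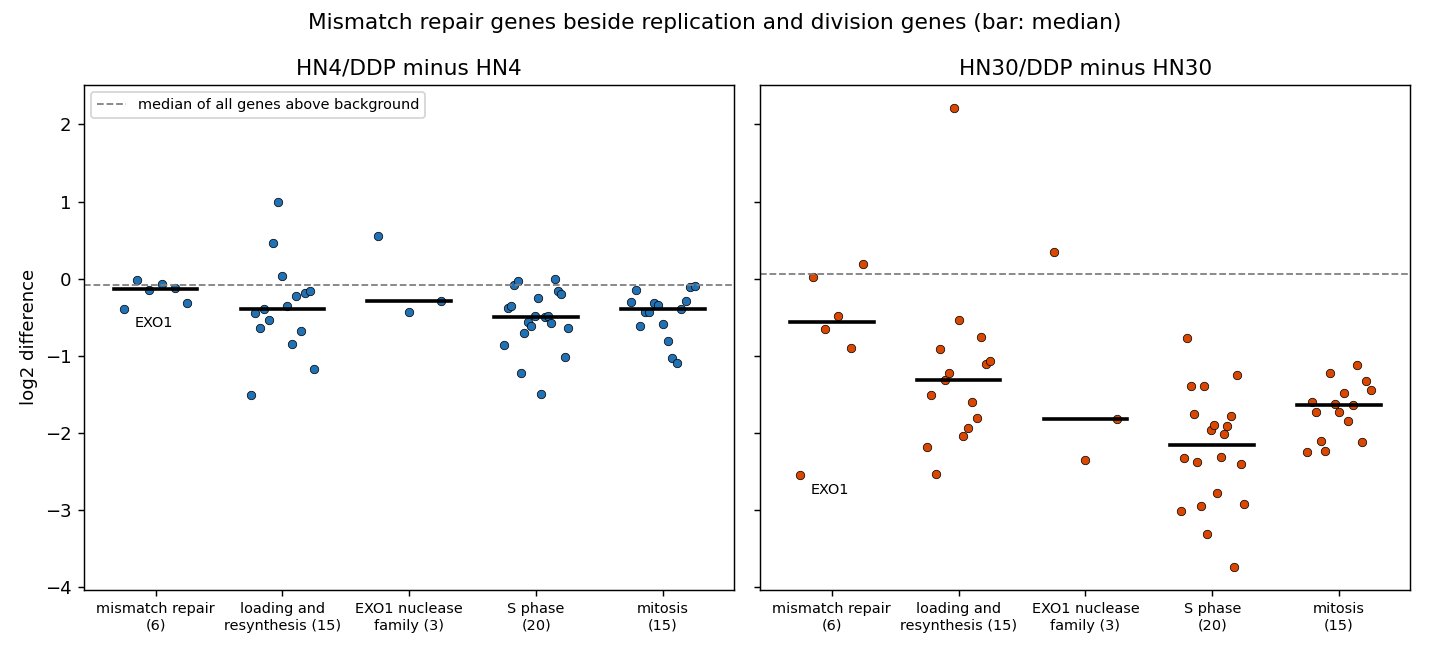
Differences (y axis, log2) of the 6 members and of the genes of 4 lists in HN4/DDP (left) and HN30/DDP (right); each point is 1 gene, bars are medians and the dashed line is the median of all genes above background. In HN30/DDP the medians are −0.57 for mismatch repair, −1.31 for loading and resynthesis, −1.82 for the EXO1 nuclease family, −2.16 for S phase and −1.64 for mitosis, with EXO1 at −2.55.

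The genes whose 4 levels ran most like those of EXO1 were looked for among 22148 genes well above background on all arrays. Likeness was the largest gap, over the 4 arrays, between the levels of both genes after each gene's own mean was subtracted. The nearest was ERCC6L, a DNA translocase of mitotic chromosomes, with a largest gap of 0.065 and differences of −0.30 in HN4/DDP and −2.67 in HN30/DDP. CHEK1, the checkpoint kinase of stalled replication, followed with a gap of 0.071 and differences of −0.25 and −2.43. The splicing factor SRSF7 had a gap of 0.081, the nuclear transport factor RANBP1 had 0.083, and a transcript without a gene symbol, ENST00000552481, had 0.090. These 5 were picked for their likeness over only 4 arrays, so their nearness is a description.

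The promoters of the members were read from the RefSeq table of GRCh38.p14, from 250 bases before to 50 bases after the first listed start site. They were searched on both strands for TTTGGCGC or TTTCGCGC, letters of E2F sites, which occur in front of many genes of S phase. Among all 35116 promoters of this length 1.15% held such a match, and 2 of the 6 members did, EXO1 with 1 match and MSH3 with 2 overlapping ones. A second EXO1 start site in the table held no match. The EXO1 match lies at bases 4 to 11 after the start site. The sequence is shown because EXO1 had the largest difference of the members, and the capitals mark the matched bases.
EXO1 promoter, chr1:241847954-241848253, plus strand: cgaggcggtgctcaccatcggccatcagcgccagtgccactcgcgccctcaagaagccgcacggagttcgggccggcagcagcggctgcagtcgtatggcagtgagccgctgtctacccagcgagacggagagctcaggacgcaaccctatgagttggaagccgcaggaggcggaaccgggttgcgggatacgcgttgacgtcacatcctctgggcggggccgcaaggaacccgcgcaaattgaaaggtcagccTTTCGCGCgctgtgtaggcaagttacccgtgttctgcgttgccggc

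A match is a description of the sequence and was not tied to binding in these data. TTTGAA, the letters of the CHR element of mitotic genes, was in 0 of the 6 promoters and in 15.2% of all. CCAAT was in 3 of the 6 and in 34.6% of all, and the GC box GGGCGG was in 5 of the 6 and in 45.0% of all.

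PMS2 and PMS1 each share their start region with a neighbour, and the neighbours moved further than the members. The nearest start site of AIMP2, a scaffold of the tRNA synthetase complex, lies 166 bases from one of PMS2 on the opposite strand. AIMP2 had a level of 5.54 in HN4 and 4.25 in HN4/DDP, and 6.01 in HN30 against 4.26 in HN30/DDP. Its differences were −1.29 and −1.75, while those of PMS2 were −0.31 and 0.18.

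The nearest start site of ORMDL1, a regulator of sphingolipid synthesis, lies 111 bases from one of PMS1 on the opposite strand. ORMDL1 had a level of 3.92 in HN4 and 4.97 in HN4/DDP, and 4.58 in HN30 against 3.32 in HN30/DDP. It was higher by 1.05 in HN4/DDP and differed by −1.26 in HN30/DDP, beside −0.13 and −0.90 for PMS1. The acylphosphatase gene ACYP1 lies 12557 bases from MLH3 between start sites, on the same strand, and had differences of 0.28 and −0.24.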

How the data were processed

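The authors deposited the scanner output of 4 one-colour arrays, made with Agilent Feature Extraction 10.7.1.1 on hg19. The intensity of each spot was deposited as the processed signal, from which that software had subtracted the background without normalization between arrays. A further table by the authors gives log2 values with identical quantiles on every array (58341 entries, median 4.65); the steps behind it are not stated in the paper or the labels. Over 58183 probes its differences correlated across probes with those used here with r = 0.996 in HN4/DDP and 0.958 in HN30/DDP.

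From 60901 non-control spots per array, log2 signals were taken, outlier spots were left out, the 75th percentile was subtracted and copies of a probe were averaged. The brightest probe by its mean over all arrays stood for each gene. A gene was counted as higher or lower past 1 only where it was well above background on the brighter array. The 6 members and all gene lists were chosen with earlier results of these data known. All members, the genes of the small lists, the extremes of the S phase and mitosis lists and the 5 nearest profiles to EXO1 were named, except that 1 gene of the lists is not reported here by name; list medians were read beside all genes. The contrast over both lines used limma 3.58.1 (R 4.3.3), lmFit and eBayes with a trend, with Benjamini-Hochberg adjustment over all genes tested. Arrays have no read depth; the number of arrays limits the precision. All 4 arrays share 1 slide and 1 scan. Of the 15 member probes, 12 were matched by accession to RefSeq. Alternatives were normexp background correction with an offset of 50, scaling on the median, quantile normalization, the authors' log2 table, a pseudocount of 16, outlier spots kept, the mean of all probes of a gene, and removal of the trend with brightness. Other steps used Python 3.11.15, numpy 2.4.6, pandas 2.3.3, statsmodels 0.14.6 and matplotlib 3.10.9.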

Additional observations from a re-analysis of the deposited data

Results flagged for a closer look

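The brightest PMS2 probe had opposite signs in the 2 lines, with a difference of −0.31 in HN4/DDP and 0.18 in HN30/DDP. MLH3 also had opposite signs, −0.023 and 0.021, both within the scanner SD of 0.21. With 1 pair of arrays per line, neither gap between the lines was tested.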

How the results depend on the processing

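Of 96 member differences recomputed under 8 alternatives, 74 moved by less than the scanner SD and 22 by more, and 21 of these 22 were in HN30/DDP. Scaling on the array median gave −2.97 for EXO1, −0.91 for MSH6, −1.07 for MSH3, −0.24 for PMS2, −0.40 for MLH3 and −1.32 for PMS1 in HN30/DDP, so that 3 members instead of 1 were lower by over 1. It gave list medians of −0.99 for the members, −1.73 for loading and resynthesis, −2.24 for the nuclease family, −2.58 for S phase and −2.05 for mitosis. Quantile normalization gave 0.10 for MSH6, −0.40 for MSH3, 0.58 for PMS2 and −0.58 for PMS1, with medians of −0.27 for the members, −0.96 for loading and resynthesis, −1.70 for S phase and −1.30 for mitosis. The authors' table gave 0.056 for MSH6, 0.53 for PMS2 and −0.66 for PMS1, with medians of −0.30, −1.04, −1.74 and −1.37 for the same lists. Removal of the trend with brightness gave −2.31 for EXO1, 0.016 for MSH6, −0.39 for MSH3, 0.57 for PMS2 and −0.59 for PMS1, with medians of −0.19, −0.97, −1.71 and −1.31. The mean of all probes gave 0.51 for MSH6 in HN4/DDP and, in HN30/DDP, 0.074 for MSH6, −0.072 for PMS2, −0.56 for PMS1 and −0.27 for the members' median. Normexp background correction gave medians of −1.61 for the nuclease family and −1.95 for S phase. Scaling on the array median moves every gene of a line by the same amount. In HN30/DDP it took the median of all genes from 0.06 to −0.36. The cause of the other shifts was not tested. The means of MSH6 and PMS1 each include a probe that was not well above background on any array, so that no difference of these genes is read from them. In limma the estimate changed sign for MSH6 (0.080) and PMS2 (0.19) after quantile normalization and for MLH3 (0.013) after normexp. Under its 4 alternatives limma passed 0 genes, with a smallest adjusted p between 0.387 and 0.669 and 1957 to 2516 genes at an unadjusted p under 0.05. The limma contrast pairs the arrays by cell line. No paired analysis was possible by replicate number, because every condition has only number 1. Leaving out an array leaves no second pair. With 1 array per condition the spread between cultures is unknown.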
